A study of Mus musculus with 10 samples.

Results

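The 9 genes described here were chosen by name: the Notch receptors Notch1, Notch2 and Notch3, the Notch regulator Dtx1, the Notch target Hes1, and the T lineage genes Tcf7, Bcl11b, Gata3 and Ptcra. They are 9 of 27184 gene names on the array. All non-control probes that the scanner files assign to these 9 genes were taken, which gave 14 of the 41174 probes on the array, and 10 of the 14 were kept for testing because they were well above background on both arrays of at least 1 group. The series asked how B cell acute lymphoblastic leukemia (B-ALL), a cancer of immature B cells, arises in mice that carry a single working copy of Ebf1 and of Pax5, the transcription factors that set up and hold B cell identity. Single-colour Agilent arrays read the total RNA of 10 mouse samples, 2 in each of 5 groups. Leukemic cells were taken from the lymph nodes of 3 mice, numbered 686, 713 and 760, of the genotype Ebf1+/- Pax5+/-. The dHet pro-B cells were Ebf1+/- Pax5+/- Rag2-/- and were grown from c-Kit-positive fetal liver cells, over a layer of OP9 feeder cells, in medium with IL-7, SCF and Flt3 ligand. The wt pro-B cells were Ebf1+/+ Pax5+/+ Fraction BC cells sorted from the bone marrow of control mice. Genotype at Ebf1 and Pax5, loss of Rag2, tissue and culture on feeder cells therefore cannot be told apart between dHet and wt pro-B cells. Leukemias and wt pro-B cells differ in Ebf1 and Pax5 genotype and in tissue, and leukemias and dHet pro-B cells in Rag2 genotype, tissue and culture. The ages of the mice are not given in the sources used here.

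A level below is log2 of an array's processed signal relative to the 75th percentile of that array, so 0 is the level of a fairly bright probe. The 2 arrays of a group correlated at 0.945 to 0.993 over the kept probes. The share of probes well above background was 35.7% on replicate 1 of leukemia 686 and 42.1% to 52.4% on the other arrays, and the lowest level that was well above background was -2.13 there against -4.73 to -3.48 elsewhere. All replicate 1 leukemia arrays lay on 1 slide, all replicate 2 leukemia arrays on another and all pro-B arrays on the third, so a slide effect cannot be told apart from the difference between leukemias and pro-B cells. The 3 replicate 1 leukemia arrays also carried low levels of sex-linked transcripts that their replicate 2 arrays lacked. Xist, the RNA of the inactive X chromosome, was well above background at -1.26 and -2.51 on replicate 1 of leukemias 686 and 713 and not well above it on their replicate 2, and it stood at 3.59 and 4.48 in leukemia 760. Eif2s3y, a Y-linked gene, stood at -2.64 on replicate 1 of leukemia 760 and was not well above background on replicate 2, while leukemias 686 and 713 gave 1.90 to 2.78. The part of this in the results was not tested, and results against pro-B cells are also given from the replicate 2 leukemia arrays alone where the call differed. The dHet pro-B arrays did not hold the same RNA, since Xist was well above background on replicate 2 only, at 5.17, and Eif2s3y on replicate 1 only, at 2.42. Of 11 B lineage markers, all were well above background on both arrays in leukemia 713, dHet and wt pro-B cells. In leukemia 760 10 were, and in 686 9 were, with Pax5 well above background on neither array of these leukemias. The labels do not say whether the arrays of a leukemia came from separate extracts, so p-values between leukemias measure the spread between these samples, which may be technical.

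Notch receptors are cleaved after binding Delta or Jagged ligands on a neighbouring cell, and the freed intracellular part joins RBPJ and Mastermind proteins on DNA to switch on targets such as Hes1, Dtx1 and Ptcra. In lymphoid precursors NOTCH1 signalling in the thymus drives entry to the T lineage, where TCF7, GATA3 and BCL11B act in turn, whereas NOTCH2 acts in marginal zone B cells. Deltex1, the product of Dtx1, is a ubiquitin ligase that acts on Notch signalling and is itself raised by it. Pre-T alpha, the product of Ptcra, pairs with the T cell receptor beta chain in thymocytes.

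Of the 60-base probes, 3 are shown. The Hes1 probe spans an intron and the Bcl11b probe is the brighter of 2. The Notch2 probe is the dimmest of 3 and was not kept. The Hes1 probe matches chr16:30065983-30066278 on the plus strand of mm9, a span of 296 bases, so it reads spliced RNA.
Hes1 probe: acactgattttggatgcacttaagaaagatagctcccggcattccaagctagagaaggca
The Bcl11b probe lies at chr12:109153847-109153906 on the minus strand of mm9 and reads through without a stop codon in 1 of 3 frames.
Bcl11b probe: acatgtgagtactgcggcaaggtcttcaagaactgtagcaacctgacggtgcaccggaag
The Notch2 probe lies at chr3:97951205-97951264 on the plus strand of mm9.
Notch2 probe not kept: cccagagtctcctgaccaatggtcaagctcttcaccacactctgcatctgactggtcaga
Of the other probes, the main Notch1 probe lies at chr2:26314772-26314830, the main Notch2 probe at chr3:97953914-97953973, the Dtx1 probe at chr5:121130278-121130337 and the main Tcf7 probe at chr11:52066114-52066173, all on mm9.

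RefSeq promoter windows of GRCm38.p6 were matched for 8 of the 9 genes, 9 windows in all. Hes1 had no window, so its promoter was not searched. The 250 bases before each start were searched on both strands for the RBPJ core TGGGAA and the EBF1 core CCCNNGGG. The RBPJ core was present in 1 of the 9 windows, that of Ptcra, against 21.6% of all 32851 windows of this length. It occurred there at 84 and 32 bases before the start, in capitals in the sequence, which covers chr17:46763713-46763962 on the minus strand.
Ptcra promoter: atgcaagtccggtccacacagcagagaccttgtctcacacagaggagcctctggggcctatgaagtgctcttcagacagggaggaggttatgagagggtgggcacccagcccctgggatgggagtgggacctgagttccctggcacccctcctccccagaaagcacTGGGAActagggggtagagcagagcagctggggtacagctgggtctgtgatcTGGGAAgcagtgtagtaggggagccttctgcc
The EBF1 core was present in 4 of the 9 windows, those of Notch2, Notch3, Bcl11b and Ptcra, against 11.8% of all windows. It is in capitals in the Notch2 window, which covers chr3:98013288-98013537 on the plus strand, and it did not overlap an RBPJ core in any of the 4.
Notch2 promoter: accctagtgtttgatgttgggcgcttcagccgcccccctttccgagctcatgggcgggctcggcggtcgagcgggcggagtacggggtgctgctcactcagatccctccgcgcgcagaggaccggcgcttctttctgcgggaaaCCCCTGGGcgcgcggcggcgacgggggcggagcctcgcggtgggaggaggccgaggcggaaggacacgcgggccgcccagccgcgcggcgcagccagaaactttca
These matches describe the letters only, and binding was not measured.

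Against wt pro-B cells the leukemias had more Tcf7 RNA and less Notch2 RNA, and the main probe of each kept its call in all 25 alternative settings. Dtx1 was lower and the main Notch1 probe higher, each in 22 of the 25. Hes1 was higher, with its call lost in 9 of the 25, and Bcl11b lost its call in 17 of the 25. In probes, 5 of the 10 were higher and 3 lower at an adjusted p under 0.05 in limma, where 27.7% of all 22302 kept probes were higher and 31.0% lower. These counts include Bcl11b and the second Tcf7 probe, which were not well above background in wt pro-B cells, and the second Notch2 probe, which passed the filter through wt pro-B cells alone; a probe kept through the group where it is high had to differ, so its call adds no support. Of the 7 probes well above background on both arrays of a group on each side, 3 were higher and 2 lower, where 32.3% and 23.3% of all 17360 such probes were. Against dHet pro-B cells, which share their Ebf1 and Pax5 genotype, 1 of the 10 probes was higher, that of Tcf7, and 0 were lower, where 19.3% of all probes were higher and 27.4% lower. At an unadjusted p under 0.05 in limma, 3 of the 10 probes were higher and 0 lower than in dHet pro-B cells, where 22.7% of all probes were higher and 32.4% lower. Of the 7 probes well above background on both sides, 1 was higher and 0 lower at the adjusted threshold, where 21.2% and 24.3% of all such probes were. In dHet against wt pro-B cells 2 probes were higher, both of Tcf7, and 4 were lower, those of Dtx1, Notch2 and Notch3, against 13.9% and 13.2% of all probes. Of the 6 well above background on both sides 1 was higher, that of Tcf7, and 2 lower, those of Dtx1 and Notch2, against 14.5% and 9.67% of all such probes. Fewer cells of a type and less RNA per cell cannot be told apart in such bulk samples. The plot of levels by array shows each gene in each sample.

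**Figure D1:**
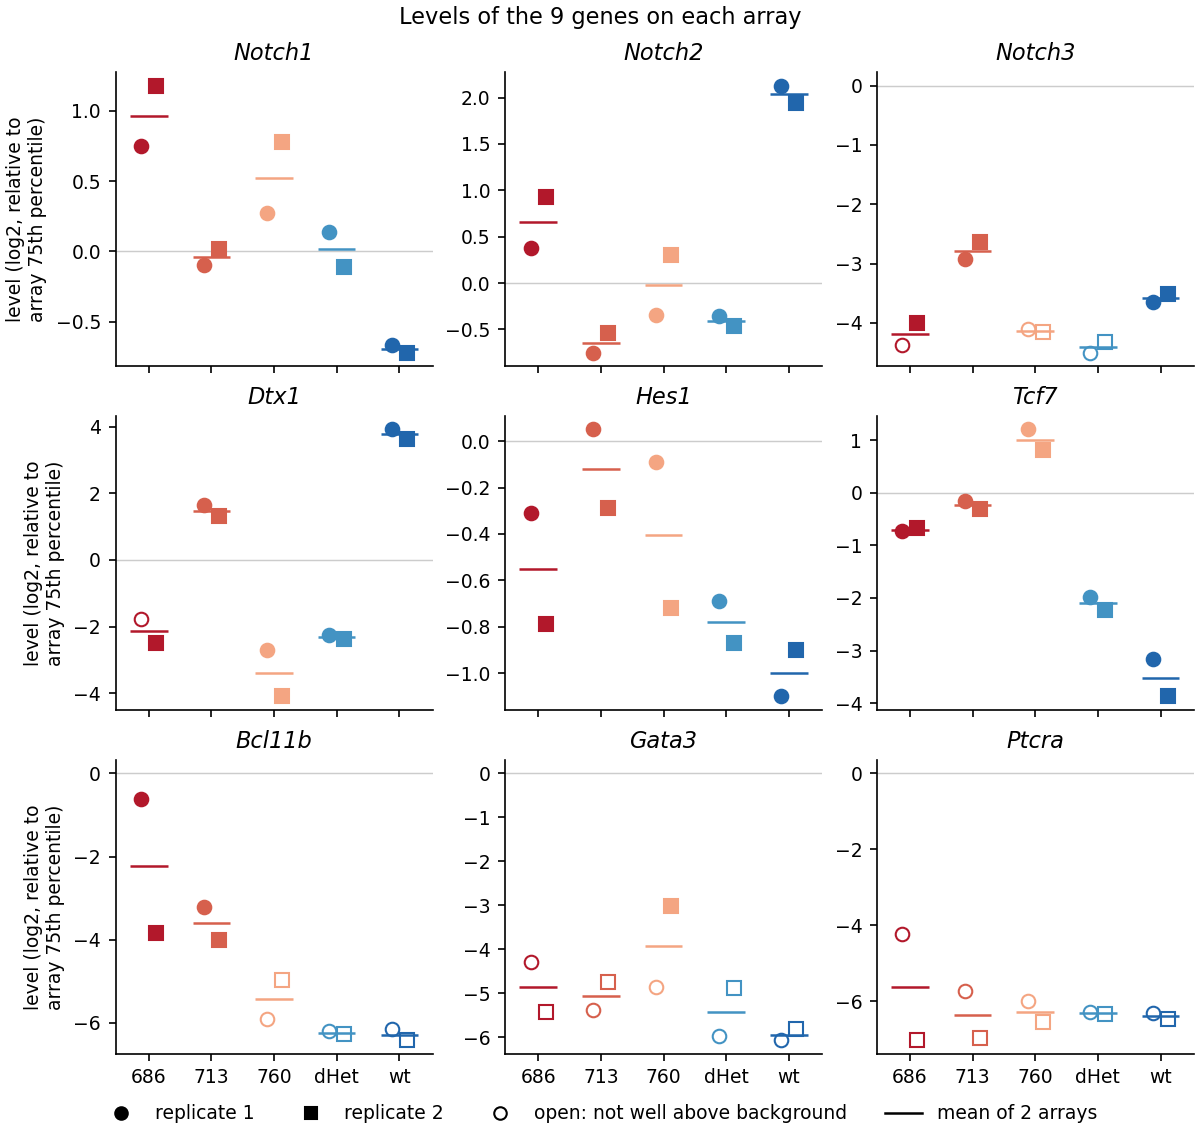
Levels of the 9 genes on each array, as log2 relative to the 75th percentile of the array, by group (686, 713 and 760 are leukemias, dHet and wt are pro-B cells). Circles are replicate 1, squares replicate 2, open symbols were not well above background and lines are means of 2 arrays. The wt arrays are highest for Notch2 and Dtx1 and lowest for Tcf7 and Notch1.

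Among the receptors, Notch1 was highest in leukemia 686 and lowest in wt pro-B cells. Its main probe, the mean of 10 spots per array that varied by 2.53% to 9.12% (coefficient of variation), gave levels of 0.75 and 1.18 in leukemia 686, 0.27 and 0.78 in 760, -0.10 and 0.02 in 713, 0.14 and -0.11 in dHet and -0.67 and -0.72 in wt pro-B cells. All other arrays lay above both wt arrays, while 686 overlapped 760 and 713 overlapped dHet pro-B cells. The leukemias exceeded wt pro-B cells by 1.18 ± 0.30 (log2 difference ± SE, 3 mice against 2 arrays), or 2.26-fold, with an adjusted p of 0.017 in limma. The second Notch1 probe gave 0.76 ± 0.32 with an adjusted p of 0.0836, which did not pass. Against dHet pro-B cells the main probe gave 0.47 (adjusted p = 0.239), and dHet exceeded wt pro-B cells by 0.71 ± 0.24 (adjusted p = 0.0689), neither of which passed. The dHet against wt difference of Notch1 passed in limma with slide as a fixed block (adjusted p = 0.00865), where 49.7% of all probes passed in either direction. All pro-B arrays lay on the same slide, so this block left the difference at 0.71 and altered only its error estimate. It is not a correction of that difference for slide. The leukemia against wt call was lost without wt replicate 1 or 2, with adjusted p of 0.0812 and 0.0861, and with the percentile taken over probes detected on all arrays (0.81, adjusted p = 0.0648).

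Notch2 was the receptor with the largest fall from wt pro-B cells. Its main probe gave 2.13 and 1.94 in wt pro-B cells, 0.38 and 0.93 in leukemia 686, -0.34 and 0.30 in 760, -0.36 and -0.46 in dHet pro-B cells and -0.75 and -0.54 in 713. Both wt arrays lay more than 1 log2 unit above every other array, and the gaps between 760, dHet and 713 were smaller than the gap between the arrays of 760. It was 4.11-fold lower in the leukemias (-2.04 ± 0.37, adjusted p = 0.00492) and 5.44-fold lower in dHet pro-B cells (-2.44 ± 0.28, adjusted p = 0.00108) than in wt pro-B cells. The difference between leukemias and dHet pro-B cells was 0.40, with an adjusted p of 0.397. The second probe, well above background on both wt arrays and on 1 of 6 leukemia arrays, differed in the leukemias by -2.13 ± 0.45 (adjusted p = 0.00851), a call lost without wt replicate 1 (adjusted p = 0.0565). In dHet pro-B cells it was not well above background, and it was at least 4.54-fold lower than in wt (adjusted p = 0.000292). Its difference of 1.31 ± 0.45 between leukemias and dHet pro-B cells did not pass in limma (adjusted p = 0.0543). That difference passed in 8 of 25 alternatives, but its size is uncertain so near background. The main probe, measured in every group, carries the Notch2 result, since the second was kept through wt pro-B cells alone. Such a bound sets the mean of the brighter group against the lowest level that was well above background on each array of the dimmer group, or the probe's own level where that was higher. It is not a firm limit where some arrays of the brighter group were themselves not well above background. The Notch2 probe that was not kept was well above background on replicate 2 of leukemia 686 and replicate 1 of wt pro-B cells only, and was not tested.

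Notch3 was dim, and highest in leukemia 713. Its levels were -2.93 and -2.64 in 713 and -3.65 and -3.52 in wt pro-B cells, all well above background. Leukemia 686 gave -4.37 and -4.00, of which the second was well above background, and neither 760 (-4.11 and -4.16) nor dHet pro-B cells (-4.50 and -4.32) were. The mean over leukemias did not differ from wt by more than its error (-0.12 ± 0.44, adjusted p = 0.832). Without mouse 713 the difference was -0.58 with an adjusted p of 0.0139, but 1 of the 4 arrays of 686 and 760 was well above background, so its size is uncertain. Notch3 was at least 1.39-fold lower in dHet than in wt pro-B cells (adjusted p = 0.0231 in limma). This call was lost in 9 of 21 alternatives, among them quantile normalization (adjusted p = 0.632) and leaving out any of the 4 pro-B arrays. The log2 difference ran from -1.05 to -0.1 over the alternatives. Notch4, which is not one of the 9 genes, did not pass in any of the 3 comparisons.

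Dtx1 had the widest range of the 9 genes. It stood at 3.92 and 3.64 in wt pro-B cells and 1.66 and 1.31 in leukemia 713. It was far lower in dHet pro-B cells (-2.26 and -2.37), in 686 (-1.78, not well above background, and -2.50) and in 760 (-2.71 and -4.10). No leukemia or dHet array overlapped wt, and 686 overlapped dHet pro-B cells. Dtx1 was 68.4-fold lower in dHet than in wt pro-B cells (-6.10 ± 0.46, adjusted p = 0.000202) and 35.0-fold lower in the leukemias (-5.13 ± 1.36, adjusted p = 0.0201). By mouse, the difference from wt was -7.18 in 760, -5.92 in 686 and -2.29 in 713. The leukemia call was lost without wt replicate 1 or 2 (adjusted p = 0.0995 and 0.0858) and without mouse 686 (adjusted p = 0.0566). Against dHet pro-B cells the leukemias differed by 0.97 ± 1.36, with an adjusted p of 0.582, and the mice lay on both sides, at 3.81 in 713, 0.18 in 686 and -1.08 in 760.

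Hes1, a repressor of the basic helix-loop-helix family, moved little. Its levels were 0.05 and -0.29 in 713, -0.09 and -0.72 in 760, -0.31 and -0.79 in 686, -0.69 and -0.87 in dHet and -1.1 and -0.90 in wt pro-B cells. Each leukemia overlapped the next, 686 and 760 overlapped dHet, and no array overlapped wt. Hes1 was 1.56-fold above wt pro-B cells in the leukemias (0.64 ± 0.18, adjusted p = 0.0222). With the replicate 2 leukemia arrays alone the difference was 0.40 and did not pass (adjusted p = 0.132), and it was 0.89 with the replicate 1 arrays alone. The call was also lost without wt replicate 1 or 2 (adjusted p = 0.134 and 0.0651), 686 replicate 1 (0.0809) or 760 replicate 1 (0.0797). The differences of 0.42 ± 0.18 from dHet pro-B cells (adjusted p = 0.0962) and of 0.22 between dHet and wt did not pass.

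**Figure D2:**
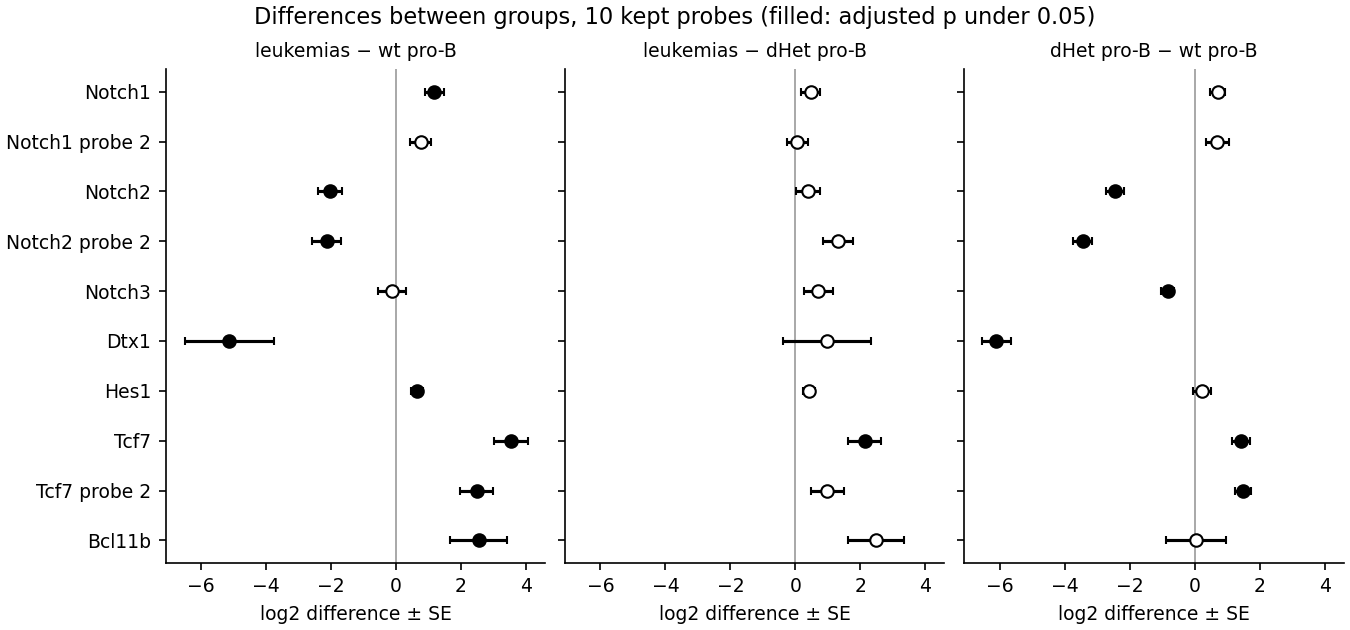
Log2 differences with standard errors for the 10 kept probes in leukemias against wt pro-B, leukemias against dHet pro-B and dHet against wt pro-B cells, with filled points for an adjusted p under 0.05 in limma. Tcf7 is the gene with a filled point in all 3 panels, and Dtx1 has the lowest values, -5.13 and -6.10, in the 2 comparisons with wt.

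Among the T lineage factors, Tcf7, the HMG box protein TCF1, was higher in the leukemias than in either kind of pro-B cell, and higher in dHet than in wt. Its main probe gave 1.2 and 0.82 in leukemia 760, -0.16 and -0.31 in 713, -0.72 and -0.68 in 686, -1.98 and -2.22 in dHet and -3.16 and -3.87 in wt pro-B cells. The arrays of no group overlapped those of another. Tcf7 was 11.7-fold above wt pro-B cells in the leukemias (3.54 ± 0.52, adjusted p = 0.00242), and 4.37-fold higher than in dHet pro-B cells (2.13 ± 0.52, adjusted p = 0.0201). It was 2.67-fold higher in dHet than in wt pro-B cells (1.42 ± 0.27, adjusted p = 0.00881). The replicate 2 leukemia arrays alone gave 3.46 against wt and 2.04 against dHet, with adjusted p of 0.00224 and 0.0188. The second probe was not well above background in wt, but was on 5 of 6 leukemia arrays and 2 of 2 dHet arrays. It was higher by 2.48 in the leukemias (adjusted p = 0.00804) and at least 1.85-fold higher in dHet pro-B cells (adjusted p = 0.00511). Against dHet its difference of 0.99 ± 0.51 did not pass (adjusted p = 0.16). The main probe's call against dHet was lost without dHet replicate 1 (adjusted p = 0.0858) or 2 (adjusted p = 0.106). The dHet against wt call was lost in the authors' deposited value table, where the difference was 0.37 (adjusted p = 0.0655), and with normexp background correction, where it was 0.35 (adjusted p = 0.81), as well as without dHet replicate 1 (adjusted p = 0.0714) or wt replicate 2 (adjusted p = 0.0549). The second probe's call in leukemias against wt was lost in 3 of the 25 alternatives, among them that without wt replicate 1. Its difference ran from 0.53 to 3.05 over the alternatives.

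Bcl11b, a zinc finger factor needed to commit cells to the T lineage, was well above background in 2 of the 3 leukemias. It stood at -0.61 and -3.83 in 686 and -3.21 and -4.01 in 713, and was not well above background in 760 (-5.90 and -4.96), dHet (-6.20 and -6.28) or wt pro-B cells (-6.15 and -6.42). The high value was that of a single array, replicate 1 of 686, which lay far above its replicate. Bcl11b was above wt pro-B cells in the leukemias by 2.54, with an adjusted p of 0.0471 for a probe that was kept through 686 and 713 alone. With 4 of 6 leukemia arrays and no wt array well above background, the size of that difference is uncertain. This call was lost in 17 of 25 alternatives, among them the replicate 1 leukemia arrays alone (adjusted p = 0.114), and was kept with the replicate 2 arrays alone (adjusted p = 0.00507). The difference of 2.49 from dHet pro-B cells did not pass (adjusted p = 0.0594), and it passed with the replicate 2 leukemia arrays alone (adjusted p = 0.00823). The second Bcl11b probe was not well above background on any array.

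Gata3, the zinc finger factor of early T cells, was well above background on 1 array, replicate 2 of leukemia 760, at -3.01. Its other readings, from -6.07 to -4.29, were not well above background. The leukemia readings all lay above those of wt and overlapped those of dHet pro-B cells, and the probe was not tested. Ptcra was not well above background on any of the 10 arrays, where its readings ran from -7.03 to -4.24. These probes bound the level from above and do not show that the genes were silent.

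The 3 leukemias differed from each other in Dtx1, Notch3, Notch2 and Tcf7. In each test a leukemia was set against the mean of the other two, over the 10 arrays with a shared spread. Leukemia 713 had higher Dtx1 (4.26 ± 0.40, adjusted p = 0.00124) and Notch3 (1.37 ± 0.18, adjusted p = 0.00336) and less Notch2 (-0.96 ± 0.24, adjusted p = 0.0447). Of the other 4 leukemia arrays 1 was well above background for Notch3, so the size of that difference is uncertain (0.72 with each reading raised to at least the lowest level well above background on its array). These were 3 of 10 probes, where 12.2% of all probes passed in either direction. Leukemia 760 had less Dtx1 (-3.08 ± 0.40, adjusted p = 0.00406) and more Tcf7 by both probes (1.48 ± 0.23 and 1.54 ± 0.22, adjusted p = 0.00926 and 0.00566), 3 of 10 probes against 9.64% of all. Leukemia 686 had less Tcf7 by the second probe (-1.13 ± 0.22, adjusted p = 0.0418), 1 of 10 against 2.96%. Leaving out single arrays ended the Notch2 call in 713 for 8 of the 10 arrays (adjusted p of 0.0675 to 0.184) and the Tcf7 call in 686 for 9 of the 10 (0.0552 to 0.171). The main Tcf7 probe lost its call in 760 without 760 replicate 1 (adjusted p = 0.0717).

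The replicate 2 arrays alone, each from a single slide, put the leukemias in the same order for Dtx1 (1.31 in 713, -2.50 in 686 and -4.10 in 760) and for Tcf7 (0.82 in 760, -0.31 in 713 and -0.68 in 686). Since the leukemia replicates were paired by slide, the fit was repeated with slide as a fixed block, added after the data were seen. Leukemia 686 then differed in 8 of 10 probes, where 11.5% of all passed: both Notch1 probes (0.72 and 0.80, adjusted p = 0.0198 and 0.0121) and the main Notch2 probe (0.98, adjusted p = 0.00805) were higher. The second Notch2 probe was also higher (1.18, adjusted p = 0.0344). It was well above background on 1 of the 2 arrays of 686 and on none of the other 4, so the size of that difference is uncertain. Dtx1 (-1.18, adjusted p = 0.0237) and Tcf7 (-1.09 and -1.13, adjusted p = 0.0304 and 0.00592) were lower. Notch3 also passed (-0.73, adjusted p = 0.0204), but it was well above background on 1 of the 2 arrays of 686 and 2 of the other 4, and with each reading raised to at least the lowest level well above background on its array the difference turned to 0.31. In leukemia 713 the block added lower Notch1 (-0.78 and -0.79, adjusted p = 0.00638 and 0.00508) and a lower second Notch2 probe (-0.94, adjusted p = 0.0339), 6 of 10 probes against 29.7% of all. That Notch2 probe was well above background on 0 of 2 arrays in 713 and 1 of 4 in the others, so the size of its difference is uncertain. In leukemia 760 the block added lower Notch3 (-0.65, adjusted p = 0.0163), 4 of 10 probes against 22.6%. Notch3 was well above background on 0 of 2 arrays in 760 and 3 of 4 in the others. Bcl11b passed with neither fit. With normexp background correction the 7 calls between leukemias made without the block were lost, with adjusted p from 0.0664 for Dtx1 in 713 to 0.965 for Notch3 in 713.

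**Figure D3:**
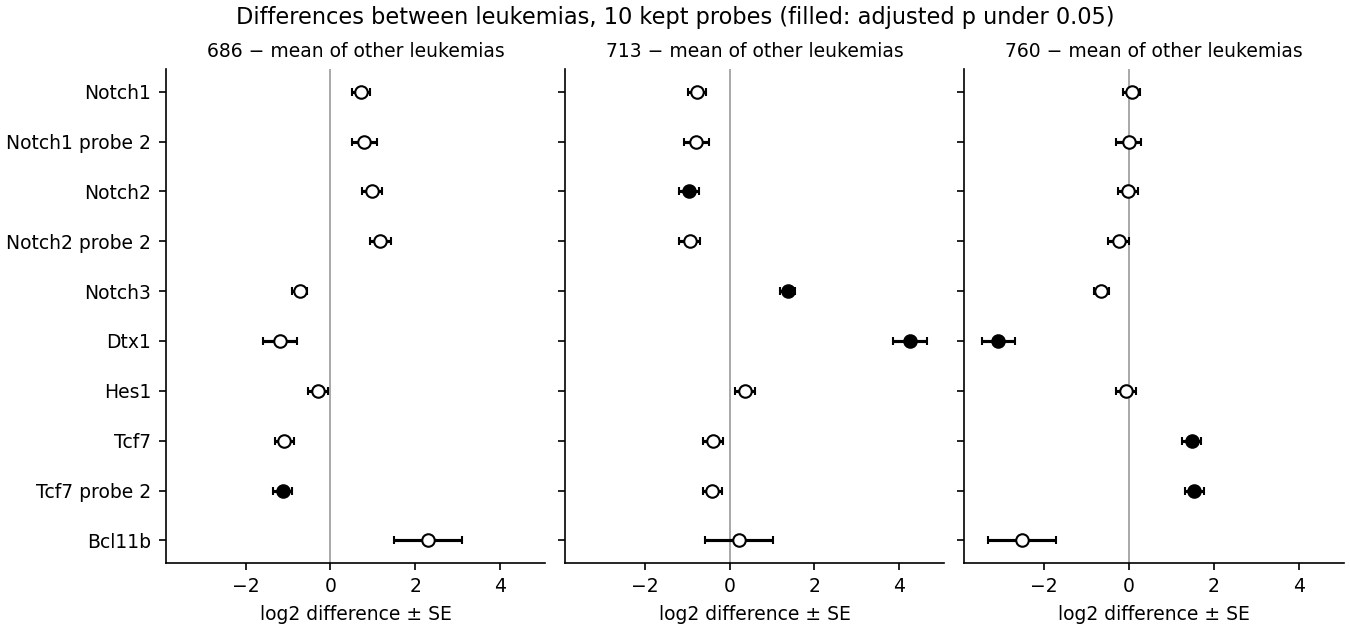
Log2 difference with standard error of each leukemia from the mean of the other leukemias for the 10 kept probes, without the slide block. Filled points passed an adjusted p of 0.05 in limma. Dtx1 stands at 4.26 in 713 and -3.08 in 760, and both Tcf7 probes lie above 1 in 760.

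Around these genes, other genes of the Notch pathway and the T lineage were counted from lists of textbook genes by role, with 1 probe per gene and the 9 genes themselves left out. Of 64 such genes measured, 17 were higher and 16 lower in leukemias against wt pro-B cells (26.6% and 25.0%), 10 and 18 against dHet pro-B cells (15.6% and 28.1%), and 12 and 8 in dHet against wt pro-B cells (18.8% and 12.5%). Over all 14453 genes, 31.3% were higher and 27.6% lower in leukemias against wt pro-B cells with a median difference of 0.06, 21.7% and 24.5% against dHet pro-B cells with a median of -0.06, and 15.6% and 14.2% in dHet against wt pro-B cells with a median of 0.13. The shares of the 64 genes lay near these. The balance of higher and lower depended on how arrays were scaled. It is given by list medians in leukemias against wt, here with those of the 9 genes that had a kept probe in their lists. With the array median in place of the 75th percentile, these ran from 0.18 for T lineage factors to 0.90 for turnover regulators. With the percentile taken over probes detected on all arrays, they ran from -0.75 to -0.03.

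Of 7 ligand genes 3 were measured. Dll4, a Delta ligand, was at least 1.23-fold lower in the leukemias than in wt and at least 1.16-fold lower than in dHet pro-B cells. Jag2 was at least 2.12-fold higher in the leukemias than in dHet pro-B cells and at least 2.66-fold lower in dHet than in wt. Of 15 genes for receptor maturation and cleavage 13 were measured, and 4 were higher and 2 lower in leukemias against wt pro-B cells (median 0.25). Lfng, the fringe enzyme that adds sugar to Notch and changes which ligands it answers to, rose most, by 3.21 ± 0.16 in the leukemias and 2.77 ± 0.32 in dHet pro-B cells. Psen2, a subunit of the gamma-secretase that frees the intracellular part, was lower in the leukemias (-1.02 ± 0.13 against wt and -0.77 ± 0.13 against dHet pro-B cells).

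Of 15 genes of the nuclear complex and its corepressors all were measured, and 5 rose and 4 fell in leukemias against wt (median -0.17), shares of 33.3% and 26.7% that lay near those of all genes. Maml2, a Mastermind coactivator, fell by 2.24 on the log2 scale and the acetyltransferase Kat2b by 1.2, while the corepressor subunits Sap30 (1.03 ± 0.14) and Tle3 (1.00 ± 0.20) rose. Rbpj, the DNA-binding partner of Notch, rose in the leukemias (0.71 ± 0.12) and in dHet pro-B cells (0.98 ± 0.29). Against dHet pro-B cells 4 rose and 5 fell, with Maml3 (-1.68 ± 0.25) and Cir1 (-1.42 ± 0.15) the lowest.

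Of 11 turnover regulators other than Dtx1, 9 were measured, and 5 rose and 1 fell in leukemias against wt (median 0.53). Dtx4, a relative of Dtx1, went the other way from it, rising by 4.11 ± 0.53 in the leukemias and 4.54 ± 0.33 in dHet pro-B cells (adjusted p = 0.00151 and 0.000177). Nrarp, a Notch-induced inhibitor of the complex, rose by 1.1 ± 0.34 against wt and at least 4.45-fold against dHet pro-B cells, where it was not well above background.

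Of 11 further target genes 10 were measured. In leukemias against wt 3 rose and 3 fell (median -0.65), against dHet pro-B cells 3 rose and 1 fell (median 0.26), and in dHet against wt 0 rose and 3 fell (median -0.21; 0 and 4 at an unadjusted p under 0.05 in limma). Myc, the growth regulator, rose by 3.40 ± 0.34 against wt and 4.66 ± 0.34 against dHet pro-B cells. Heyl, a Hes relative, fell by 4.22 against wt, with 1 of 6 leukemia arrays well above background, and was at least 9.1-fold lower in dHet than in wt pro-B cells. Igf1r, a growth factor receptor well above background on 1 of 6 leukemia arrays, fell by 4.01 against wt and by 4.26 against dHet pro-B cells on the log2 scale. Of 15 further T lineage factors 14 were measured, and 1 rose and 5 fell in leukemias against wt (median -0.72), 0 rose and 6 fell against dHet pro-B cells (median -1.04, with the same counts at an unadjusted p under 0.05 in limma), and 4 rose and 3 fell in dHet against wt (median 0.45). Ikzf1, which encodes Ikaros, fell by 3.28 against wt, and Lef1, the closest relative of Tcf7, fell by 1.91 against wt and by 3.59 against dHet pro-B cells, where Tcf7 rose. Lef1 rose in dHet against wt pro-B cells (1.68 ± 0.22).

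**Figure D4:**
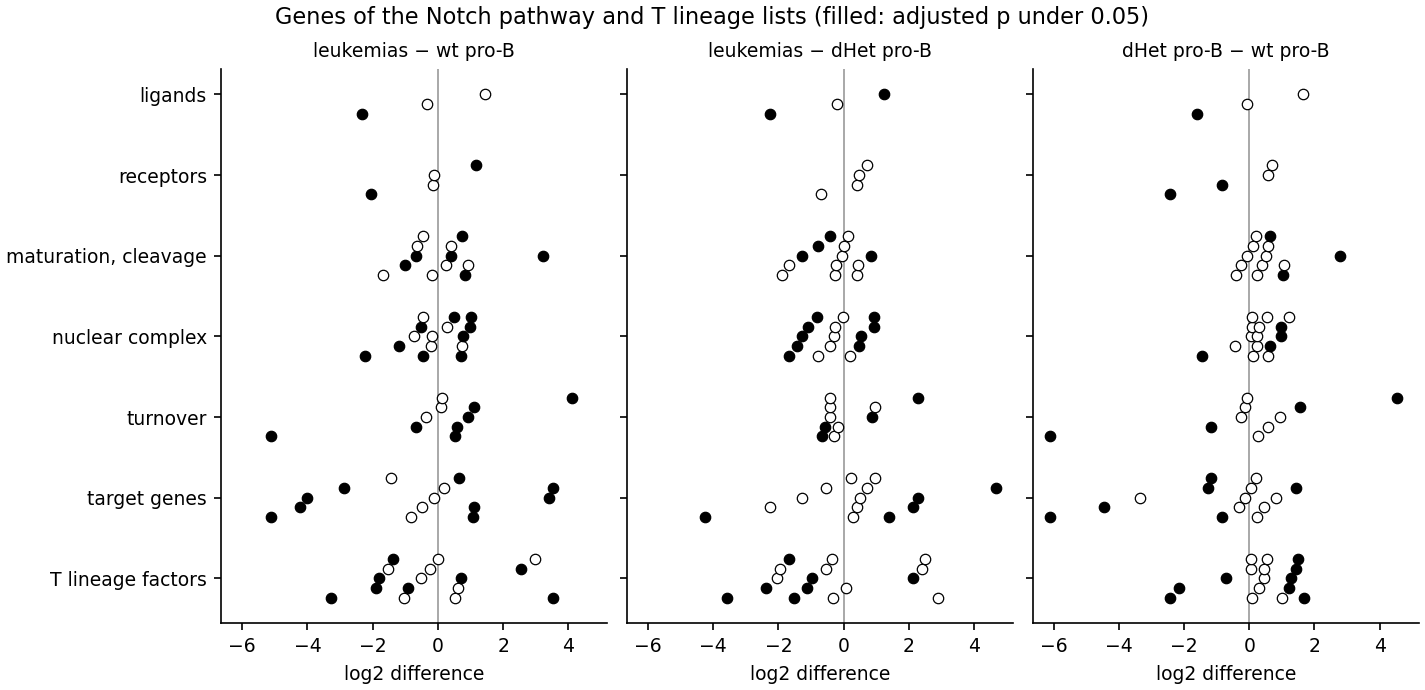
Log2 difference of each measured gene of the 7 lists in the 3 comparisons. Points are spread vertically within a list and filled where the adjusted p was under 0.05 in limma. Of the 9 genes, the 7 with a kept probe are included, and Gata3 and Ptcra are not. Filled points lie on both sides of 0 in most lists. In leukemias against wt pro-B cells the lowest of the turnover and target lists is Dtx1, which stands at 0.97 against dHet pro-B cells.

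Marker levels are given here beside those of the 9 genes. For the marker counts below, 31.3% of all genes were higher and 27.6% lower in leukemias against wt pro-B cells. The shares were 21.7% and 24.5% in leukemias against dHet pro-B cells, and 15.6% and 14.2% in dHet against wt. In 760 against the other leukemias 9.64% of all kept probes passed in either direction. The summed level of 19 T cell markers on the array (log2 of the summed scaled signal) was 6.08 to 6.55 in leukemia 760, 5.53 to 5.80 in 713, 4.23 to 4.84 in 686, 3.85 to 4.21 in dHet and 3.70 to 3.77 in wt pro-B cells, the group order of Tcf7. In leukemias against wt 6 of the 15 measured markers rose and 0 fell (median 1.12; 8 and 0 at an unadjusted p under 0.05 in limma), among them Cd3d (4.37 ± 0.47), Thy1 (3.78 ± 0.87), Lck (2.60 ± 0.49) and Cd6 (2.02 ± 0.57). The single markers did not all follow that order: in dHet against wt 2 rose and 4 fell, among them Cd2 (-6.39 ± 0.89) and Zap70 (-2.19 ± 0.55), and in 760 against the other leukemias 5 were higher, among them Cd247 (3.18 ± 0.37), and 4 lower, among them Cd2 (-4.40 ± 0.77), with a median of -0.23. In leukemias against dHet pro-B cells 5 rose and 1 fell (median 1.72). Cd4, Cd28 and Themis were not well above background in any group, and Cd3e was not in 760 or wt pro-B cells. The part of these cells' markers in the Tcf7 values was not tested. The summed level of 9 mature B cell markers was 8.26 to 8.42 in wt pro-B cells, 7.43 to 8.42 in 713, 5.87 to 6.5 in 686, 5.05 to 5.70 in 760 and 4.99 to 5.37 in dHet pro-B cells. In dHet against wt pro-B cells 9 of 9 fell (median -5.94), and Ms4a1, which encodes CD20, was at least 1390-fold lower. In leukemias against wt 5 of 9 fell (median -2.43), and in 713 against the other leukemias 7 of 9 were higher, where 8.05% of all genes were. Of 8 measured myeloid markers 6 fell in dHet against wt (median -4.82), and 5 fell and 1 rose in leukemias against wt (median -3.59). Their summed level was 6.23 to 7.22 in wt pro-B cells, 6.57 to 7.02 in 686, 5.67 to 5.69 in 713, 4.22 to 4.39 in dHet and 3.62 to 3.82 in 760. Of 7 measured NK and cytotoxic markers 3 rose and 0 fell in leukemias against wt (median 1.90; 4 and 0 at an unadjusted p under 0.05 in limma) and 2 rose and 0 fell against dHet pro-B cells (median 2.22; 3 and 1 unadjusted), with Ncr1 not well above background in any group. Of the 11 B lineage markers 7 fell and 3 rose in leukemias against wt, and 8 fell and 0 rose against dHet pro-B cells, the same as at an unadjusted p under 0.05 in limma. The part of these marker groups in the values of Dtx1, Notch2 and the other genes was not tested.

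**Figure D5:**
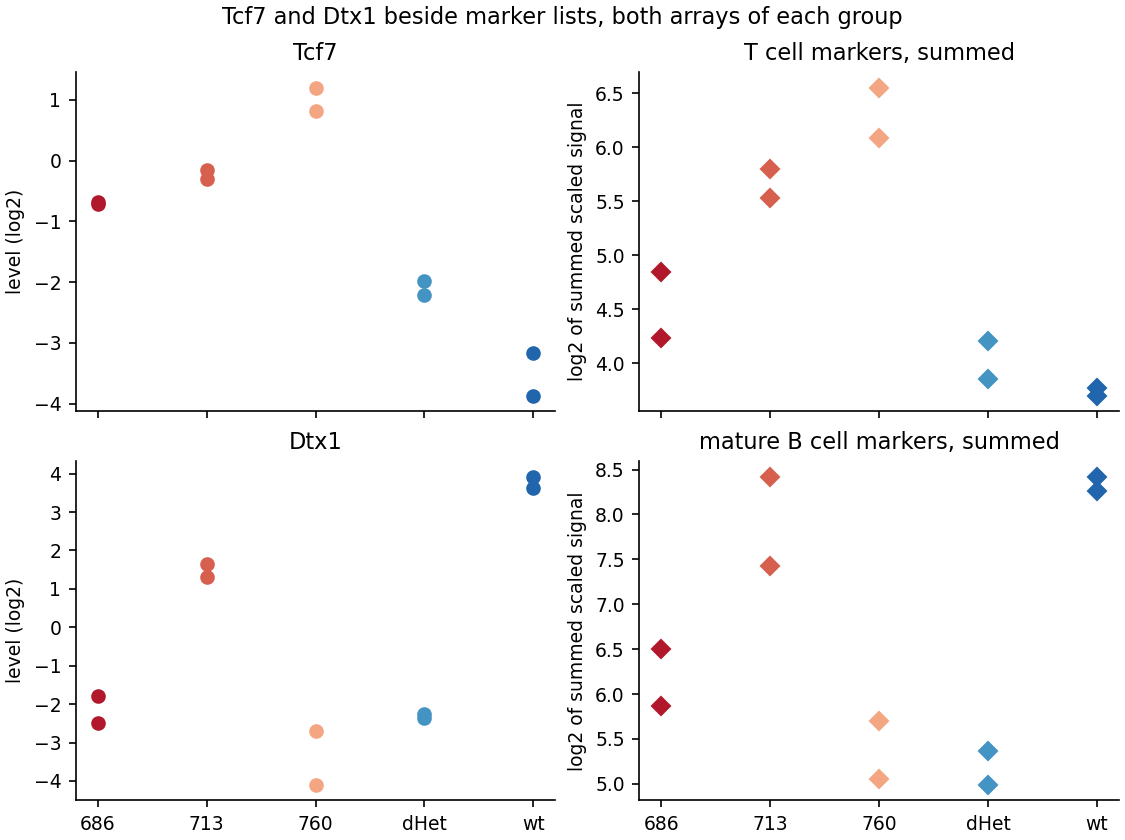
Levels of Tcf7 and Dtx1 (left, log2 relative to the array 75th percentile) beside the summed levels of T cell and mature B cell markers (right, log2 of the summed scaled signal), with 1 point for each of the 2 arrays of a group. Both Tcf7 and the T cell markers are highest in 760, and Dtx1 and the mature B cell markers are high in wt pro-B cells and 713.

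The genes whose level over the 10 arrays most resembled each member were ranked by Pearson correlation among 12155 genes with a symbol, as a description with 10 arrays that share groups and slides. Dtx1 was closest to Polm (0.992), Rnase6 (0.982) and Siglecg (0.981), and Tcf7 to Lgmn (0.991), Plcg2 (0.981) and Lsr (0.979). Hes1 was closest to Sec11a (0.981), Notch1 to Ddx42 (0.976), Notch2 to Sec24d (0.975), Notch3 to Mtor (0.969) and Bcl11b to Usp24 (0.936). Among the members themselves the lowest correlation was -0.81 between Dtx1 and Notch1, and Hes1 and Tcf7 gave 0.71.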

How the data were processed

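Each deposited scanner file holds the intensity of every spot of 1 array; per the file headers the scanner software was Agilent Feature Extraction 10.5.1.1 (9.1 in the submitters' processing notes). The authors' processed signal is background-subtracted and detrended within an array. The authors' deposited value table holds log2 values of 41267 probes and was used as an alternative. Here log2 of the processed signal minus the array's 75th percentile was taken, after averaging spots of a probe and leaving out control spots and outlier flags. Probes well above background on both arrays of at least 1 group were kept. Leukemias were compared with pro-B cells in limma 3.58.1 (R 4.3.3) over 7 samples (3 mouse means and 4 pro-B arrays, 4 residual degrees of freedom), and other comparisons over 10 arrays (5 residual degrees of freedom), with Benjamini-Hochberg adjustment over 22302 probes and a threshold of 0.05. The number of arrays limits the precision. The fits were tested on simulated data. Every member probe is named, a gene by its brightest kept probe, and of each list up to 4 called genes with the largest change per comparison; sex-linked genes were named after their values were seen. Members and lists were chosen with earlier results of these data known. Names were updated through RefSeq (28562 probes by accession, 5119 by symbol and 327 by synonym, 7166 keeping the file's name). The leukemia arrays of replicate 1 and of replicate 2 each shared a slide, and deviations of same-numbered leukemia arrays correlated at 0.44 to 0.63, so these numbers pair the leukemias; correlations involving pro-B arrays were -0.04 to 0.08. Alternatives were normexp background correction (offset 50), quantile, median and detected-probe scaling, no filter, the authors' table, blocks for replicate, slide and scan day, arrays as replicates, single slides, only the groups compared, and each array or mouse left out.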

Additional observations from a re-analysis of the deposited data

Results flagged for a closer look

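The leukemias differed in 7 probe tests of 1 mouse against the other leukemic mice. Leukemia 713 stood apart by 4.26 for Dtx1, 1.37 for Notch3 and -0.96 for the main Notch2 probe (log2 differences). Leukemia 760 stood apart by -3.08 for Dtx1, and by 1.48 and 1.54 for the main and second Tcf7 probes. Leukemia 686 stood apart by -1.13 for the second Tcf7 probe.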

How the results depend on the processing

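No called direction reversed under any alternative. In leukemias against wt pro-B cells, the 5 higher probes became 2 with normexp and with detected-probe scaling, and 3 with no filter, with the authors' table and with slide as a random block. They ranged from 1 to 5 with an array or mouse left out, and the 3 lower probes from 1 to 4. Against dHet pro-B cells, the 1 higher probe became 2 with quantile normalization and with either leukemia slide alone, and 3 with median scaling. It became 5 with arrays as replicates, 6 with a replicate block and 7 with a scan-day block. Of all 22302 probes, 4321, 4965 and 5535 were higher in these last settings, against 4314 with the settings used above. The member count ranged from 0 to 3 with an array or mouse left out. In dHet against wt pro-B cells, the 2 higher probes became 0 with normexp and the authors' table and 4 with slide (random or fixed), scan day or only the groups compared, and 1 to 2 with an array left out; the 4 lower became 2 with normexp and 3 to 4 with an array left out. In leukemia 686 the 1 probe became 0 with normexp, detected-probe scaling, no filter or only the groups compared, 2 with the replicate block, 3 with the authors' table and 8 with slide (random or fixed) or scan day, and 0 to 1 with an array left out. In 713 the 3 became 0 with normexp and 6 with slide (random or fixed) or scan day, and 2 to 4 with an array left out. In 760 the 3 became 0 with normexp and 5 with slide as a random block, and 2 to 5 with an array left out. Between leukemias and between dHet and wt pro-B cells, the scan-day block and the fixed slide block gave the same counts over all probes. In dHet against wt these were 6206 higher and 4871 lower, so the blocks count as 1 alternative there. The pro-B arrays shared a slide and a scan day, so neither block could correct that difference for slide or day. The replicate block moved no other count by over 1.5 times. The cause of these changes was not tested. Normexp called 216 higher and 321 lower probes of all in dHet against wt pro-B cells, against 3107 and 2949. Median scaling moved the median of all probes in leukemias against wt from -0.07 to 0.49 and the split of calls from 6183 higher and 6909 lower to 8972 and 3887, and detected-probe scaling moved them to -0.44, 3995 and 9387. Signal near background limits Notch3, Bcl11b, Gata3 and Ptcra.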
